A study of Mus musculus with 4 samples.

Results

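The cyclin-dependent kinase (CDK) inhibitors Cdkn1a, Cdkn1b, Cdkn2a, Cdkn2b, Cdkn2c and Cdkn2d and the retinoblastoma family genes Rb1, Rbl1 and Rbl2 were followed through RNA of sorted mouse fetal gonad cells. The members were chosen by symbol, without regard to their values, and all 9 were found as 1 gene each among the 20299 genes of the files. Strand-specific RNA-seq had been made of 4 cell fractions at 15.5 days post coitum (dpc), with 1 library for each of male germ cells, female germ cells, male gonadal somatic cells and female gonadal somatic cells. All 4 fractions came from untreated fetuses of CF1 mothers mated with TgOG2 males, which carry an enhanced green fluorescent protein (EGFP) gene under the Oct4 (Pou5f1) promoter. Germ cells were the GFP-positive cells of a flow sort and somatic cells were the GFP-negative rest, so the somatic fraction holds every other cell of the gonad. The number of fetuses behind a library is not given in the sources for this account.

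CDK inhibitors hold back the kinases that carry a cell from G1 into DNA replication. The INK4 proteins (the products of Cdkn2a, Cdkn2b, Cdkn2c and Cdkn2d) bind CDK4 and CDK6 and keep cyclin D off them, whereas the CIP/KIP proteins (here Cdkn1a, or p21, and Cdkn1b, or p27) bind complexes of cyclin and CDK, those of CDK2 above all. The retinoblastoma, or pocket, proteins RB1, RBL1 (p107) and RBL2 (p130) bind E2F transcription factors until CDKs phosphorylate them, and RBL1 and RBL2 also join the DREAM complex, which holds down cell cycle genes in resting cells. At this age male germ cells are in G1/G0 arrest, female germ cells are in meiotic prophase, Sertoli cells of the testis divide, and pregranulosa cells of the ovary are mostly arrested.

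The sequences before the transcription starts of 3 genes are shown because Cdkn2a and Cdkn2b, neighbours on chromosome 4, were both higher in each germ library than in each somatic library, and Cdkn1b was the reverse. They are RefSeq sequences of build GRCm38.p6, from 250 to 51 bases before the annotated start, written 5′ to 3′ on the strand of the gene, and capitals mark a motif match. Cdkn2a has 2 starts in the table: the upstream one, of the Arf transcript, at chr4:89294670-89294869 (minus strand), and the downstream one, of the Ink4a transcript, at chr4:89282243-89282442 (minus strand). Cdkn2b lies at chr4:89311083-89311282 (minus strand) and Cdkn1b at chr6:134920151-134920350 (plus strand).
Cdkn2a, Arf start: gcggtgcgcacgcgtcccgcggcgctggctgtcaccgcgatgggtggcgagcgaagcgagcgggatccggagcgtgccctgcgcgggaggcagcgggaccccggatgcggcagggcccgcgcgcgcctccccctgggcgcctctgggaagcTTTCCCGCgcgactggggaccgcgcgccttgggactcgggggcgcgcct
Cdkn2a, Ink4a start: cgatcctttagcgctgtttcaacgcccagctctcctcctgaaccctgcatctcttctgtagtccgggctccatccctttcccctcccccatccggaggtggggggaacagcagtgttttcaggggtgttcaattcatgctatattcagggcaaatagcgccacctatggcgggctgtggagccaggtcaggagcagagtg
Cdkn2b: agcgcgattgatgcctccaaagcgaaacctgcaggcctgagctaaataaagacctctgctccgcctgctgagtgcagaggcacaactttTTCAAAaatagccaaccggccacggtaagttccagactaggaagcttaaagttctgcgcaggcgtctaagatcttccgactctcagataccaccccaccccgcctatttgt
Cdkn1b: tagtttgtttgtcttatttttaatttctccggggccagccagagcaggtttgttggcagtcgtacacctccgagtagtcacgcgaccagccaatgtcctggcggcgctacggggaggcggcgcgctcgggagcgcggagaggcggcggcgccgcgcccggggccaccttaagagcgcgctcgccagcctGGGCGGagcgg
In the Arf sequence the capitals mark TTTCCCGC, a form of the E2F motif, which begins 99 bases before the start. Cdkn2b holds TTTGAA, the CHR motif bound by DREAM, on the strand opposite to the gene, and Cdkn1b holds GGGCGG, the GC box. The Ink4a sequence held none of the motifs searched.

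The table held 11 starts for 8 of the 9 genes, and Rb1 was not matched. Motifs were searched on both strands. TTTCCCGC was present before 1 of the 11 starts, against 0.691% of 32851 starts of all genes, and the E2F forms TTTGGCGC and TTTGCCGC before none, against 0.350% and 0.247%. TTTGAA was present at 2 starts (Cdkn2b and Rbl2) against 13.6%, CACGTG (the E-box) at none against 4.34%, and GGGCGG at 5 (of Cdkn1a, Cdkn1b, Cdkn2c, Cdkn2d and Rbl1) against 24.6%. These windows had a median GC content of 62.5%, against 51.5% over all starts, and a median of 13 CpG sites, against 4. The matches describe letters only.

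Levels are given as SPM, the deposited gene signal per 1000000 of the scaled library total. Depth was 24.9, 17.5, 17.6 and 24.2 M estimated fragments (M stands for 1000000), in the order germ male, germ female, somatic male, somatic female, which is kept below. A value of 0 allows up to 3 fragments, or 0.113, 0.179, 0.181 and 0.120 SPM. The 7 germ cell markers summed to 4024 and 2242 SPM in the germ libraries and to 30.0 and 9.70 SPM in the somatic libraries. Of the 7, 4 were at least 2-fold higher in male germ cells and 0 in female ones. Pou5f1, whose promoter drives the sorting reporter, stood at 497 in male and 34.5 SPM in female germ cells. Dnd1 stood at 236 and 6.65 SPM, whereas Dazl was higher in females, at 649 and 1125 SPM. Whether the sort sampled germ cells of both sexes alike was not tested. The somatic libraries differed from each other in makeup: 5 pregranulosa markers summed to 102 SPM in male cells (with Irx3 listed at 0) and 999 in female cells, 5 fetal Leydig markers to 805 and 90.5, 6 stromal markers to 10497 and 3174, and 6 erythroid markers to 30279 and 11290. The 7 Sertoli markers summed to 817 SPM in male and 663 in female somatic cells; Gata4 and Wt1, which ovarian cells also make, carried the female sum, while Amh stood at 273 against 0.379 SPM, Dhh at 96.9 against 0.253 and Ptgds at 84.7 against 1.58. In the germ libraries the stromal sum was 144 and 22.8 SPM and the erythroid sum 294 and 92.7 SPM. The fetal Leydig sum there was 62.8 and 11.5 SPM, the Sertoli sum 28.0 and 14.4 and the pregranulosa sum 25.9 and 27.8. The endothelial sum was 55.3 and 29.6 SPM in germ against 184 and 265 in somatic libraries. Relative to the somatic library of the same sex, these last sums were higher than the stromal and erythroid ones. The part of somatic RNA in the germ values below was not tested. In these mixed fractions, fewer cells of a type and less RNA per cell cannot be told apart.

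**Figure D1:**
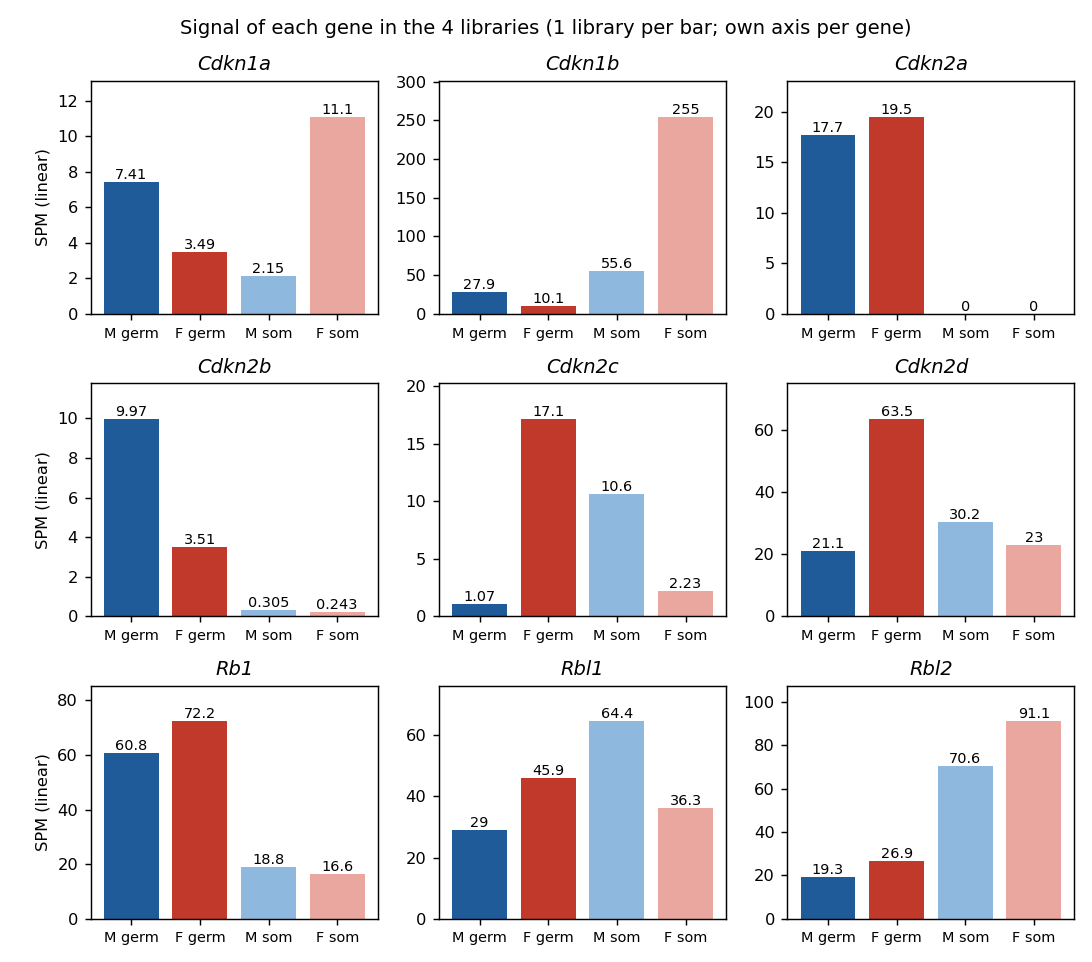
Level of each of the 9 genes (vertical axis, SPM, linear and separate for each gene) in male germ (M germ), female germ (F germ), male somatic (M som) and female somatic (F som) cells, with 1 library per bar. Cdkn2a was listed at 0 in both somatic libraries, Cdkn1b reached 255 SPM in female somatic cells, and Cdkn2c was high in female germ and male somatic cells.

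Germ cells were first compared with somatic cells, with the sexes as the 2 libraries of each cell type. Cdkn2a, which encodes the CDK4/6 inhibitor Ink4a and, from another first exon and reading frame, the p53 activator Arf, stood at 17.7 SPM in germ cells of males and 19.5 SPM in those of females and was listed at 0 in both somatic libraries. It was at least 98.1-fold higher in male germ than in male somatic cells and at least 163-fold higher in female germ than in female somatic cells, each against the level of 3 fragments. The germ minus somatic difference on the log2(SPM + 0.5) scale was 5.26 ± 0.63 (SE, 2 libraries per cell type), and it passed limma's moderated test with a Benjamini-Hochberg adjusted p of 0.0333. It was the 1 member of 9 that passed, while 2.5% of the 14148 genes tested were higher in germ cells and 5.56% were lower. Cdkn2a met the filter of 1 SPM in 2 libraries through the germ libraries alone, where it is high. Its somatic values, both listed at 0, add no spread to the test. The call was lost without the male somatic library (limma adjusted p = 0.130), without the female somatic library (0.115) and with no filter on low values (0.0702). Gene-level values do not separate Ink4a from Arf.

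Cdkn2b, the INK4 gene induced by TGF-beta in many cells, lies next to Cdkn2a and followed the same order of cell types at a lower level. Its levels were 9.97 and 3.51 SPM in the germ libraries (male, then female) and 0.305 and 0.243 SPM in the somatic libraries, the last pair resting on 5 and 6 fragments. Both germ libraries lay above both somatic libraries, by 32.7-fold in males (95% counting interval 14.0 to 103) and 14.4-fold in females (6.38 to 41.7). The fitted difference of 3.07 ± 0.74 did not pass over all genes (limma adjusted p = 0.0660), although it passed without the male germ library (0.0444), without the female germ library (0.0482) and in the fit that has sex as a term (0.0148). With the male or the female somatic library left out, the adjusted p was 0.313 and 0.318, the latter the highest over its alternatives. The fit with sex as a term gave the same Cdkn2b difference with a larger SE, 0.895. To its 1 residual degree of freedom limma added 25.71 estimated over all genes, against 2 and 3.154 in the main fit. The lower p-value with sex as a term is thus no sign of a tighter difference. Like Cdkn2a, Cdkn2b entered the fit through the germ libraries alone, since neither gene reached 1 SPM in a somatic library. Mtap, the gene beside Cdkn2a on its other flank, ran the other way, at 7.93, 4.82, 42.8 and 43.4 SPM.

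Rb1, which restrains the activating E2Fs, reached 60.8 and 72.2 SPM in the male and the female germ library and 18.8 and 16.6 SPM in the somatic libraries, so the cell types did not overlap. The difference of 1.88 ± 0.47 did not pass (limma adjusted p = 0.0701). Over its alternatives the adjusted p ran from 0.0433, without the male germ library, to 0.491, without the female somatic library. Rbl2, the pocket protein that predominates in resting cells, was the reverse: 19.3 and 26.9 SPM in germ cells against 70.6 and 91.1 SPM in somatic cells, a difference of -1.79 ± 0.47 (limma adjusted p = 0.0760). Rbl1, which is made mostly in cycling cells, stood at 29.0, 45.9, 64.4 and 36.3 SPM, and its germ and somatic libraries overlapped (-0.40 ± 0.55, limma adjusted p = 0.659). Male germ cells were thus 3.23-fold above male somatic cells for Rb1 (2.86 to 3.66) and 3.66-fold below them for Rbl2 (3.30 to 4.07), and female germ cells were 4.36-fold above (3.90 to 4.88) and 3.39-fold below (3.06 to 3.76). Rb1 overlaps Lpar6 and Rbl2 overlaps Aktip, each on the opposite strand, and the use of strand in counting is not stated in those sources either. Lpar6 was listed at 3.05, 3.95, 46.3 and 60.4 SPM and Aktip at 44.6, 75.03, 24.1 and 40.3 SPM, in both cases with the cell types in an order unlike that of the pocket gene.

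The levels of Cdkn1b were 27.9 and 10.1 SPM in the germ libraries (male, then female) and 55.6 and 255 SPM in the somatic libraries. Both somatic libraries lay above both germ libraries, although the distance differed by sex: 1.99-fold in males (1.81 to 2.20) and 25.2-fold in females (21.6 to 29.5). The difference of -2.78 ± 0.92 did not pass (limma adjusted p = 0.115). Over its alternatives the adjusted p ran from 0.0124, with sex as a term, to 0.612, without the female somatic library. Cdkn1a, the p53 target, was low throughout at 7.41, 3.49, 2.15 and 11.1 SPM, with overlapping cell types (0.02 ± 0.98, limma adjusted p = 0.992).

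Cdkn2c, an INK4 gene with roles in spermatogenesis, stood at 1.07, 17.1, 10.6 and 2.23 SPM, so the cell types overlapped and the sexes went opposite ways (-0.07 ± 1.41, limma adjusted p = 0.982). Cdkn2d, the INK4 gene whose loss together with that of Cdkn1b returns postmitotic neurons to the cycle, was listed at 21.1, 63.5, 30.2 and 23.0 SPM (0.47 ± 0.69, limma adjusted p = 0.686). The Cdkn2d values carry a doubt of their own. Its mm9 entry runs from 21092908 to 123839607 on chromosome 9, a span of 102746700 bases against 2963 in GRCm38, so it may join more than 1 placement of the gene.

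**Figure D2:**
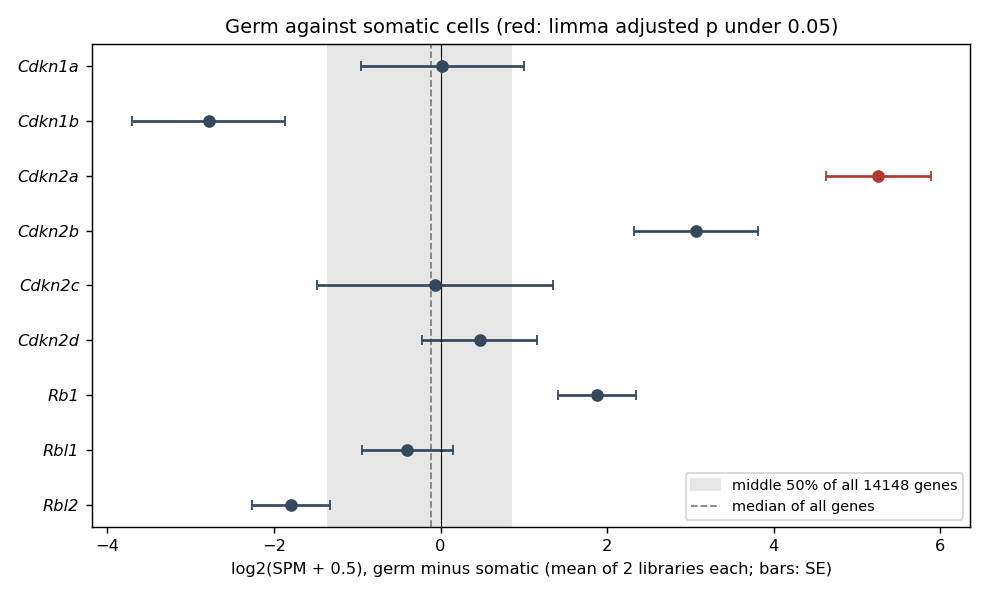
Germ minus somatic difference of each gene on the log2(SPM + 0.5) scale (horizontal axis, points with bars of 1 SE, 2 libraries per cell type), with the middle 50% of all 14148 genes shaded and their median dashed. Cdkn2a at 5.26 is the point drawn in red because it passed the limma test, which it entered through the germ libraries alone. Cdkn1b, at -2.78, lies farthest below 0.

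Across the 9 genes, 3 (Cdkn2a, Cdkn2b and Rb1) had both germ libraries above both somatic libraries, a pattern of 28.5% of all genes tested, and 2 (Cdkn1b and Rbl2) had both below, a pattern of 33.8%. These shares are near the background, so the counts say nothing particular of the genes as a group. Their median difference was 0.02, against -0.11 for all genes tested, and 5 of the 9 had an unadjusted limma p under 0.05, as did 31.4% of all genes tested. The signs for Cdkn2a, Cdkn2b, Rb1, Cdkn1b and Rbl2 were the same under every alternative fitted, while those of Cdkn1a, Cdkn2c, Cdkn2d and Rbl1 changed under at least 1. In the former genes the cell types did not overlap. No left-out library, pseudocount, filter or sex term could therefore turn their signs, and only the other scalings could have.

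The sexes were then compared within each cell type. Each of these ratios sets 1 library against 1, has no replicate check and carries a counting interval only. A ratio was counted when it was at least 2-fold with at least 5 SPM in the higher library. Among germ cells, 3 of the 9 genes were counted as higher in males (Cdkn1a, Cdkn1b and Cdkn2b) and 2 as higher in females (Cdkn2c and Cdkn2d), where the same rule took 26.8% and 26.3% of the 11766 genes that reached 5 SPM in either library. These members' counts are near the background.

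The largest of these was Cdkn2c, 16.0-fold higher in female germ cells (10.7 to 24.0), followed by Cdkn2d, 3.01-fold higher there (2.72 to 3.34). Upper quartile scaling multiplied every male to female germ ratio by 1.54, which left the Cdkn2d ratio at 0.511 (male to female) and ended its count. Male germ cells held 2.12-fold more Cdkn1a (1.59 to 2.92), 2.76-fold more Cdkn1b (2.33 to 3.28) and 2.84-fold more Cdkn2b (2.13 to 3.82) than female germ cells. For Cdkn2a the female germ level was 1.10-fold that of males, with an interval that includes equality (0.956 to 1.27), Rb1 was 1.19-fold and Rbl2 1.39-fold higher there, and these 3 directions turned under that scaling, to 1.40-, 1.30- and 1.11-fold higher in males. For Rbl1 the female germ level was higher by 1.58-fold (1.43 to 1.75), and its male to female ratio came to 0.974 under that scaling.

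Among somatic cells 1 gene of the 7 that reached 5 SPM was counted as higher in males (Cdkn2c) and 2 as higher in females (Cdkn1a and Cdkn1b), against 9.61% and 8.26% of the 11835 genes that did. Cdkn1b was 4.58-fold higher in female somatic cells (4.28 to 4.91). Cdkn1a was 5.18-fold higher there (3.61 to 7.47), whereas Cdkn2c was 4.76-fold higher in male somatic cells (3.49 to 6.52). Rbl1 was 1.78-fold higher in male somatic cells (1.62 to 1.94), Cdkn2d 1.32-fold higher there (1.17 to 1.49) and Rbl2 1.29-fold higher in female somatic cells (1.202 to 1.38). Rb1 differed by 1.13-fold, with an interval that includes equality (0.978 to 1.32). Beside these values, 7 of the 8 mitotic genes held down by DREAM were at least 2-fold higher in male somatic cells, and the pregranulosa sum was higher in females, as given above. The part of these in the sex ratios was not tested. Cdkn1c, the third CIP/KIP gene and no member here, stood at 50.4, 134, 108 and 1342 SPM, highest in female somatic cells like Cdkn1a and Cdkn1b but, unlike them, higher in female than in male germ cells.

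**Figure D3:**
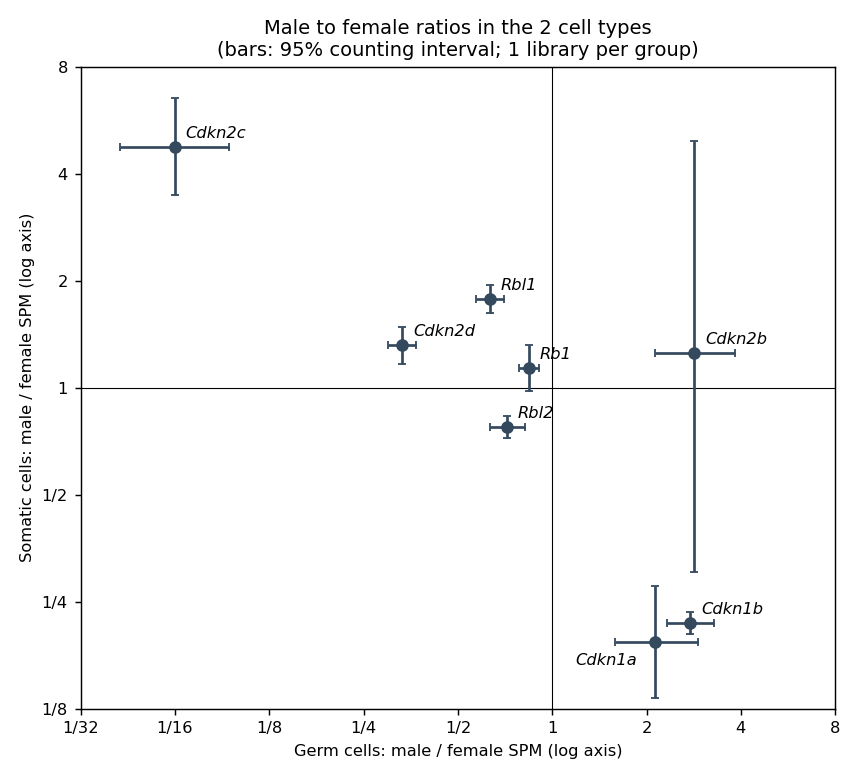
Male to female ratio of each gene in germ cells (horizontal, log axis) and in somatic cells (vertical, log axis), with bars for the 95% counting interval and 1 library per group. Cdkn1a and Cdkn1b lie at the lower right, higher in male germ and female somatic cells, and Cdkn2c lies at the upper left. Cdkn2a is not drawn because both somatic libraries were listed at 0.

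A sex difference shared by both cell types passed for none of the 9 genes in limma with cell type as a term (adjusted p from 0.980 to 0.9997, and none with an unadjusted p under 0.05). Over all genes 0.134% were higher and 0% lower in male cells, and 6.47% (915 genes) had an unadjusted p under 0.05. For Cdkn1a, Cdkn1b, Cdkn2c, Cdkn2d and Rbl1 the ratio of the sexes pointed opposite ways in germ and somatic cells, with both counting intervals leaving out 1.

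Within each sex, the size rule counted 4 of the 9 genes as higher in male germ than in male somatic cells (Cdkn1a, Cdkn2a, Cdkn2b and Rb1), against 24.4% of the 12636 genes at 5 SPM in either library, and 3 as lower (Cdkn2c, Rbl1 and Rbl2), against 32.1%. Rbl1 was no longer counted with library totals (a germ to somatic ratio of 0.510) or upper quartile scaling (0.654). In females 8 genes reached 5 SPM, of which 4 were higher in germ cells (Cdkn2a, Cdkn2c, Cdkn2d and Rb1), against 27.2% of 12245 genes, and 3 were lower (Cdkn1a, Cdkn1b and Rbl2), against 34%. Cdkn2c was 9.92-fold below somatic cells in male germ cells (6.54 to 15.0) and 7.69-fold above them in female germ cells (5.75 to 10.4). Cdkn1a was 3.46-fold above somatic cells in males (2.40 to 5.04) and 3.18-fold below them in females (2.40 to 4.32). Rbl1 was 2.22-fold lower in male germ cells (2.02 to 2.44) and 1.26-fold higher in female germ cells (1.15 to 1.39). In females Cdkn2d was 2.77-fold above somatic cells (2.496 to 3.07) and in males 1.43-fold below them (1.27 to 1.62), the latter turning to 1.014-fold higher under upper quartile scaling.

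Levels were compared between genes per length, as SPM per kilobase (kb) of the listed gene length. In male germ cells Cdkn2a stood first at 15.5 SPM per kb, followed by Rb1 at 13.1 and Cdkn1b at 11.6, and Cdkn2c was last at 0.965. In female germ cells Cdkn2d was first at 24.98, with the doubt on its entry, then came Cdkn2a at 17.1, with Rb1 and Cdkn2c both at 15.5, and Cdkn1a was last at 1.72. Both somatic libraries were led by Cdkn1b, at 23.1 SPM per kb in males and 106 in females, with Rbl2 next at 14.4 and 18.5.

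Summed by family over these 9 genes, the INK4 genes held the highest level per length in both germ libraries, at 31.9 SPM per kb in males and 60.1 in females, against 15.2 and 5.92 for the CIP/KIP pair and 22.3 and 29.4 for the pocket genes. In male somatic cells the pocket genes led at 30.3, with 24.2 for CIP/KIP and 21.7 for INK4. In female somatic cells CIP/KIP led at 111, with 28.8 for the pocket genes and 11.2 for INK4. The pocket family sum thus varied less between the libraries, 22.3 to 30.3, than did the sum of either inhibitor family. Undivided by length, the pocket genes led both germ libraries, at 109 SPM against 49.8 for INK4 in males and 144.9 against 104 in females. Cdkn1c is not in these sums and stood at 25.9, 69.0, 55.7 and 690 SPM per kb. Counted in, it would put CIP/KIP first per length in every library. The order of the families given here therefore holds only for these 9 genes. The makeup of the pocket family turned over, from Rb1 first in both germ libraries to Rbl2 first in both somatic libraries. Cdkn1b alone held 69.9% of the summed level of the 9 genes in female somatic cells.

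**Figure D4:**
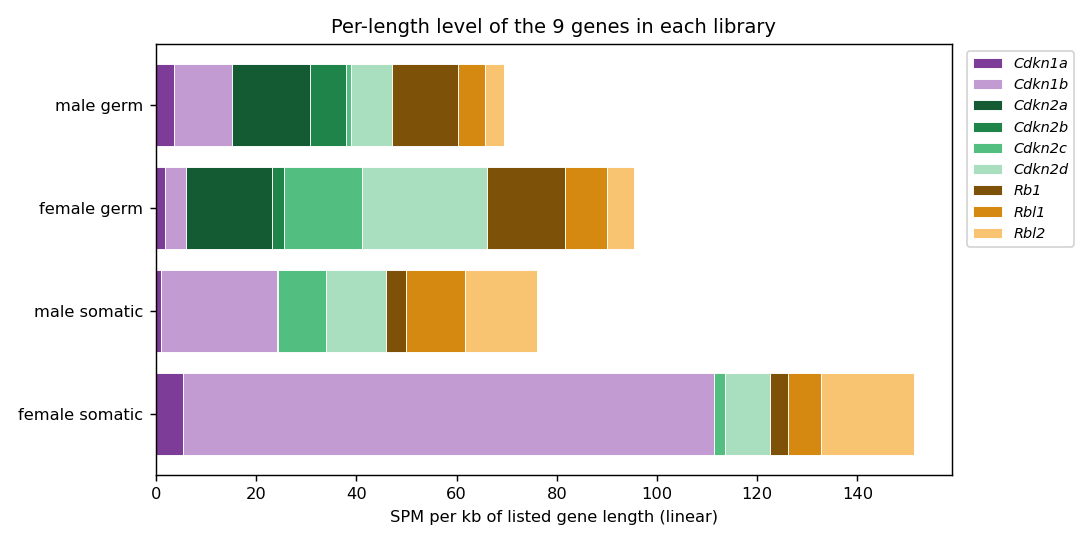
Level per length of the 9 genes (horizontal axis, SPM per kb of listed gene length, linear) stacked for each library, with CIP/KIP genes in purple, INK4 genes in green and pocket genes in brown. The stack is longest in female somatic cells, at 151 SPM per kb, where Cdkn1b takes 106. The green INK4 share is widest in female germ cells, where Cdkn2d, whose entry is in doubt, takes 24.98.

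The kinases, transcription factors and target genes around the family were read from lists. Of 13 G1 cyclins, CDKs and their activator, 1 was lower in germ cells: Ccnd2, a cyclin D, at 9.94 and 8.52 SPM in germ against 193 and 216 SPM in somatic cells (-4.40 ± 0.44, limma adjusted p = 0.0328). None was higher, and the list's median was -0.62 against -0.11 for all genes. Over all genes tested 5.56% were lower and 2.5% higher. Cdk4, a kinase that INK4 proteins bind, had 637 SPM in the male germ library and 110 in the female one, and 804 and 828 in the somatic libraries. Ccne1 and Ccne2, the cyclins E that activate CDK2, had female germ levels above those of males by 15.8-fold (12.7 to 19.9) and 18.9-fold (17.1 to 20.8).

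None of the 10 E2F and DP factors passed in either direction between cell types (median -0.77), nor did any of the 6 genes of the MuvB core and B-MYB (0.04), the 6 of inhibitor turnover (0.27) or the 8 chromatin partners of the pocket proteins (0.68). E2f6, a repressor E2F that does not bind pocket proteins, was 7.12-fold higher in male than in female germ cells (6.24 to 8.15), while E2f4, the E2F of DREAM, had a female germ level 4.43-fold that of males (3.96 to 4.98). Skp2, the F-box protein that marks p27 for destruction, was listed at 53.1, 17.0, 217 and 117 SPM, lower in both germ libraries like Cdkn1b, with a difference of -2.39 ± 0.69 that did not pass (limma adjusted p = 0.0910).

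Of 12 regulators of inhibitor transcription, 3 were lower in germ cells and none higher (median -0.72), against 5.56% and 2.5% of all genes tested. For 2 of the 3, Tbx3 and Myc, the fit was entered through the somatic libraries alone, since both were under 1 SPM in each germ library. Tbx2, a T-box repressor of the Cdkn2a locus, stood at 5.49 and 5.44 SPM in germ against 298 and 80.5 SPM in somatic cells (-4.70 ± 0.76, limma adjusted p = 0.0371). Its relative Tbx3 was listed at 0.677 and 0 SPM in germ against 13.4 and 16.5 SPM in somatic cells (-4.33 ± 0.74, limma adjusted p = 0.0394). Myc, at 0.567 and 0.0986 SPM in germ and 8.04 and 8.06 SPM in somatic cells, was the third (-3.42 ± 0.67, limma adjusted p = 0.0468). None of the 4 Polycomb genes, whose products silence the same locus, passed, and their differences went both ways. Bmi1 stood at 76.3, 68.6, 34.2 and 31.8 SPM, and Cbx7 at 41.5, 28.6, 3.35 and 4.95 SPM (2.93 ± 0.64, limma adjusted p = 0.0562). Ezh2 stood at 27.1, 97.4, 125 and 62.2 SPM and Rnf2 at 87.8, 149, 156 and 151 SPM. Mdm2, which Arf inhibits, stood at 257 and 150 SPM in germ against 39.5 and 44.3 SPM in somatic cells (2.22 ± 0.45, limma adjusted p = 0.0501). Trp53 was listed at 7.84, 3.12, 26.8 and 30.7 SPM, lower in both germ libraries without passing (limma adjusted p = 0.0934).

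None of 15 E2F targets of DNA replication passed between cell types (median -0.51). Between the germ libraries 7 of the 15 were at least 2-fold higher in females and 1 (Mcm7) in males. The same rule took 26.3% and 26.8% of all genes that reached 5 SPM in either library. Of 8 mitotic genes, Bub1, a spindle checkpoint kinase, was higher in germ cells, at 229 and 545 against 45.8 and 14.2 SPM (3.76 ± 0.75, limma adjusted p = 0.0484), and the list's median was 0.08. Mki67, a marker of cycling cells, had germ levels of 46.5 SPM in males and 749 SPM in females, and somatic levels of 709 and 262 SPM. Between the germ libraries 3 of the 8 mitotic genes were at least 2-fold higher in males (Aurkb, Ccnb1 and Cdc20) and 3 in females (Bub1, Top2a and Mki67). These counts are near the background of 26.8% and 26.3%.

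For each gene the 3 others with the nearest profile were sought among 13255 candidates, by the distance between centred log2 profiles over the 4 libraries, with smaller values nearer. Cdkn2a was nearest to Sec1 (0.0930), Spa17 (0.238) and Lass3 (0.241), and Cdkn1b to Il33 (0.0940), Krt18 (0.282) and Phyhd1 (0.395). Rb1 was nearest to Cacybp (0.0932), Dear1 (0.0974) and Taf6 (0.109), and Cdkn2d to Zfp91 (0.0784), Ppp5c (0.0889) and Dnajc24 (0.0973). The profile of Cdkn2c was the least shared: its nearest gene, Foxc1, lay at 0.317 and the next, Ng23, at 0.537. Rbl1 was nearest to Nusap1 (0.117), a mitotic spindle gene, Rbl2 to Maz (0.115), Cdkn2b to Hmx1 (0.167) and Cdkn1a to Nr3c2 (0.145). The 0.5 SPM added before the log weighs on matches to low genes. Il33 stood at 1.24, 0.207, 2.97 and 16.0 SPM and Hmx1 at 6.89, 1.96, 0 and 0 SPM.

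In the coordinates of the files (mm9, starts counted from 1), Cdkn2a lay at 88920377 to 88940523 and Cdkn2b at 88952198 to 88956941 on the minus strand of chromosome 4, with Cdkn2c on the same strand at 109333481 to 109337977. Cdkn1a lay on chromosome 17 (29227931 to 29237667, plus strand) and Cdkn1b on chromosome 6 (134870419 to 134875543, plus strand). Rb1 lay on chromosome 14 (73595309 to 73725598, minus strand), Rbl1 on chromosome 2 (156971630 to 157030270, minus strand) and Rbl2 on chromosome 8 (93593993 to 93647743, plus strand). Each value is the total over the gene's listed length, from 1108 bases for Cdkn2c to 5437 for Rbl1.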

How the data were processed

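Total RNA of 4 flow-sorted fractions, 1 library each, had been depleted of ribosomal RNA and sequenced as strand-specific pairs, per the labels' protocols. Build mm9 and the tools CASAVA 1.9, TopHat 1.2.0 and edgeR are named, without roles, in the submitters' processing notes. The program that counted reads, the annotation and the use of strand are not stated in the sources for this account. The authors deposited a gene-level signal of whole numbers for 20373 gene entries per library; 74 repeats were removed. The deposited signal was taken to be scaled and not a raw count, an inference from its low values. Of values up to 60, 43.1% to 54.3% lay on multiples of a spacing, against 15% to 23.3% by chance. The spacing was 4.105, 6.07, 6.11 or 4.105 (in the order male germ, female germ, male somatic, female somatic). The rest of these values, about as many, lay off the multiples. The spacing was taken as 1 fragment. Fragment numbers are estimates, and intervals (exact conditional binomial, 95%) and the 3-fragment limit cover counting error only.

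Signals were divided by totals scaled with trimmed-mean factors of 1.07, 0.956, 0.945 and 1.03. limma 3.58.1 (R 4.3.3, mean-variance trend, Benjamini-Hochberg, threshold 0.05) was run on log2(SPM + 0.5) for the 14148 genes that reached 1 SPM in 2 or more libraries. This scale understates differences of low genes. Such a fit leaves 2 residual degrees of freedom between cell types. It has no sex term, and each cell type has 1 male and 1 female library. The spread within a cell type is therefore the difference between its male and female libraries, not a spread of replicates. The shared sex fit leaves 1 residual degree of freedom, which is how far that difference disagrees between the cell types. No label ties the libraries to separate animals, so the p-values speak of these 4 libraries only, and technical spread cannot be told apart. Ratios of 1 library to 1 were not tested. The fit was also run on simulated data, with noise drawn independently for each library. That setting differs from these data, where the spread holds sex differences, so it cannot show how reliable the p-values are here. Coordinates were read with starts counted from 0, since spans then equalled those of GRCm38 for 6479 of 18133 matched genes, against 474 counted from 1.

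The members, lists, naming rule (all members, the listed genes and the 3 nearest profiles) and alternatives (scaling, pseudocount, filters, sex term, size rule, each library left out) were chosen with earlier results of these data known.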

Additional observations from a re-analysis of the deposited data

Results flagged for a closer look

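For 5 genes the male to female ratio pointed opposite ways in germ and somatic cells, with both counting intervals leaving out 1. This was not tested, since each ratio rests on 1 library per group. The Rb1 ratios, 0.842 in germ and 1.13 in somatic cells, also lay on opposite sides of 1, but the somatic interval includes 1. The ratio was 2.12 in germ and 0.193 in somatic cells for Cdkn1a, and 2.76 and 0.218 for Cdkn1b. For Cdkn2c the ratio was 0.0624 and 4.76, for Cdkn2d 0.332 and 1.32, and for Rbl1 0.632 and 1.78. Under upper quartile scaling the germ ratio of Rbl1 was 0.974.

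For 4 genes the germ to somatic ratio pointed opposite ways in males and females, again untested. It was 3.46 in males and 0.314 in females for Cdkn1a, and 0.101 and 7.69 for Cdkn2c. It was 0.698 and 2.77 for Cdkn2d, and 0.450 and 1.26 for Rbl1. Under upper quartile scaling the male Cdkn2d ratio was 1.014, so the sexes no longer pointed opposite ways, and its entry carries the doubt given above. These germ to somatic ratios use the same 4 values per gene as the male to female ratios and are no second observation.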

How the results depend on the processing

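Genes passing between germ and somatic cells numbered 1140, with 352 under upper quartile scaling, 0 with no filter on low values (limma, 4625 at an unadjusted p under 0.05), 3049 with sex as a term and 64 to 3597 with 1 library left out. The members passing numbered 1, with 0 under no filter (Cdkn2a at adjusted p = 0.0702), 3 with sex as a term and 0 to 3 with 1 library left out; where a cell type kept 1 library, it was assumed to vary like the other. Over its 11 alternatives the adjusted p of Cdkn2a ranged from 0.000204 to 0.130, and 8 passed. Genes with a shared sex difference numbered 19, with 126 at a pseudocount of 0.1 SPM, 9 with no filter, 36 at a 5 SPM filter, and 0 with library totals, upper quartile scaling or no cell type term (limma, 625, 727 and 59 at an unadjusted p under 0.05). Upper quartile scaling moved the median of all genes from -0.11 to 0.08 between cell types and from -0.0015 to 0.26 between sexes. At a 4-fold minimum the genes counted fell from 6242 to 2829 between germ libraries, from 2115 to 730 between somatic libraries, from 7135 to 3895 in males and from 7491 to 4417 in females, and the members from 5 to 1, and from 7 to 3 and 7 to 4 within the sexes. At a 20 SPM minimum the members counted were 2 between germ libraries, 1 between somatic libraries (1329 genes), 3 in males and 4 in females. Undivided by length, the highest member's share of the summed level went from 22.4% to 31.3% in male germ cells (from Cdkn2a to Rb1), from 26.2% to 27.5% in female germ cells (from Cdkn2d to Rb1), from 30.3% to 27.9% in male somatic cells (from Cdkn1b to Rbl2) and from 69.9% to 58.5% in female somatic cells (Cdkn1b in both). Of the fitted values of single members under alternatives, 140 kept direction and side of the threshold, 5 gained and 3 lost the call, and 12 changed sign, none of them called. Between cell types the changed values were 0.0727 for Cdkn2c under upper quartile scaling, -0.0061 for Cdkn1a and 0.0014 for Cdkn2c at a pseudocount of 1 SPM, and others with 1 library left out, where the differences ran from -1.0471 to 1.0868 for Cdkn1a, -1.8104 to 1.6802 for Cdkn2c, -0.3143 to 1.2542 for Cdkn2d and -0.8116 to 0.0085 for Rbl1. Between sexes they were 0.0107 (library totals) and 0.2353 (upper quartile scaling) for Cdkn2a and 0.2524 (upper quartile scaling) for Rb1. Among ratios, 25 moved beyond their counting interval and 41 did not. The cause of these shifts was not tested. No paired analysis by replicate number was possible because each group has 1 library. The fit with sex as a term blocks by sex: it sets germ against somatic cells of the same sex, and whether these came from the same fetuses is not stated. Its p-values rest on 1 residual degree of freedom and 25.71 added from all genes, against 2 and 3.154 in the main fit. A pass gained with sex as a term is therefore not stronger evidence for a gene. Depth limits Cdkn2b in somatic cells, at 5 and 6 fragments, and Cdkn2a there, at 0.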
